A study of Mus musculus with 6 samples.

Results

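The 10 genes described here encode the machinery that loads peptides onto MHC class I: the light chain B2m, the classical heavy chains H2-K1 and H2-D1, the peptide transporter Tap1 and Tap2 with its docking protein tapasin (Tapbp), the immunoproteasome subunits Psmb8, Psmb9 and Psmb10, and the transcriptional activator Nlrc5. They were taken by symbol, and all 10 were found among the 26264 gene symbols of each of the 6 count files. The 6 libraries are bulk RNA sequencing of immortalized mouse brown preadipocytes or adipocytes, labelled as cells of the stromal vascular fraction with Bl6N wild-type genotype. Whether all 6 come from the same line is not given in the sources used here, and they are not taken to stand for several animals. Cells near confluence received 5.5 nM FGF8 for 48 h or were left untreated (the methods call these controls vehicle-treated), and were harvested at the end of the pretreatment (day 0) or after adipogenic induction on day 3 or day 9, with 1 library for each of the 6 conditions. The labels call the last day D7. It is read here as day 9 of the study, counted as 2 days of induction plus 7 on differentiation medium. The label D3 is kept as day 3, in which the study already includes the days of induction. The growth protocol attached to the samples describes white primary preadipocytes, against the brown immortalized cells of the titles.

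MHC class I molecules display fragments of intracellular proteins on nearly all nucleated cells. The proteasome cuts proteins into peptides, the Tap1 and Tap2 dimer pumps them into the endoplasmic reticulum, tapasin holds an empty heavy chain next to the transporter, and the heavy chain leaves for the surface with B2m and a peptide. Interferons raise the whole pathway through IRF and STAT factors, with Nlrc5 as the activator dedicated to class I genes, and exchange the catalytic proteasome subunits for their immunoproteasome counterparts.

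Of the 10 genes, 7 lie within or next to the MHC on chromosome 17 of GRCm39 (GENCODE M39). These are Tapbp (34134873-34148267), H2-K1 (34214987-34219321), Psmb9 (34400960-34406738), Tap1 (34405996-34416199), Psmb8 (34416690-34420428), Tap2 (34422501-34435829) and H2-D1 (35481691-35486475). B2m lies on chromosome 2 (121977957-121983594), and Nlrc5 (95160984-95253900) and Psmb10 (106662362-106665077) lie on chromosome 8. Tap1 and Psmb9 run in opposite directions, with annotated exons that share 743 bp and RefSeq starts 226 bp apart. RefSeq windows of 250 bases before to 50 after a start (GRCm38.p6) were given for 8 members, all but Tap2 and Nlrc5, and each was placed in GRCm39 by exact match. The 250 bases before the start are shown for 5 of them, B2m, H2-K1, H2-D1 and Psmb8 because they stayed at least 2-fold lower in FGF8 cells on each day, and Tap1 because it starts from the stretch it shares with Psmb9. Capitals mark the IRF core (AANNGAAA) and the NF-kappaB consensus on either strand, and each sequence reads 5′ to 3′ on the strand of its gene, at chr2:121977918-121978167 (plus strand), chr17:34219322-34219571 (minus), chr17:35481820-35482069 (plus), chr17:34416919-34417168 (plus) and chr17:34406280-34406529 (plus).
B2m: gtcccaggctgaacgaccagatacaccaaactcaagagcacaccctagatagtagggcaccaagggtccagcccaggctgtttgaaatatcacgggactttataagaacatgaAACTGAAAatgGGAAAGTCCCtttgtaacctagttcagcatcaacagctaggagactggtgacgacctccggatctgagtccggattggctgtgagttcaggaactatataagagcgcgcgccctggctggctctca
H2-K1: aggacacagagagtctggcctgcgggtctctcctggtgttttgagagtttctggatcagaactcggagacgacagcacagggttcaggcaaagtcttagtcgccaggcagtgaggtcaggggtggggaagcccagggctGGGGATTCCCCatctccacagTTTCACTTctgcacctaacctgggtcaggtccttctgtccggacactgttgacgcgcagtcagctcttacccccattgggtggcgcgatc
H2-D1: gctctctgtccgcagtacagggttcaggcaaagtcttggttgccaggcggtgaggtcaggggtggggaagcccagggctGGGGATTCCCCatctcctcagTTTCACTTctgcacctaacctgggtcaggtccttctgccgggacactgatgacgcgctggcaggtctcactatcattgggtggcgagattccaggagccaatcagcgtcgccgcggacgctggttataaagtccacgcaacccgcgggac
Psmb8: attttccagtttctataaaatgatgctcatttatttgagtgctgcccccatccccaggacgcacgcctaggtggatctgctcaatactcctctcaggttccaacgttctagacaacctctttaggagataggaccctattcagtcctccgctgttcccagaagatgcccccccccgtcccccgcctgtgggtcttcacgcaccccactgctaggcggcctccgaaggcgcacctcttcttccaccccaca
Tap1: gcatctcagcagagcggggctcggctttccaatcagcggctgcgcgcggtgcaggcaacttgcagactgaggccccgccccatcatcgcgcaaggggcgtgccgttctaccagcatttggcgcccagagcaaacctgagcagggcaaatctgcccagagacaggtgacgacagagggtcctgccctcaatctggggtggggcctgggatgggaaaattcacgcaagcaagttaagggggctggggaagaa

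The 3 chains carried an NF-kappaB consensus and an IRF core close to each other. In B2m the IRF core began at -137 from the start and formed part of a longer match to the interferon-stimulated response element, GAAA in tandem with any 2 bases between, at -139, and the NF-kappaB match began at -126 on the opposite strand. In the first of the 2 RefSeq windows of H2-K1, the one shown, the pair began at -111 and -90, and in H2-D1 at -171 and -150, with the IRF core on the opposite strand in both. Among all 32851 windows of the table, 23.9% held an IRF core, 8.46% an NF-kappaB consensus and 3.44% the longer element, against 3, 3 and 1 of the 8 members. TTCNNNGAA, the gamma-activated site bound by STAT dimers, was found in Psmb8 alone (at -97) and in 8.30% of all windows. The other searched letters were common: CCAAT stood in 6 of 8 members and 37.4% of windows, and TGACG, the core of the X2 box, in 5 of 8 and 20.8%. The windows of Tap1 and Psmb9 share 275 bases, so that a site there can count for both. Tap1, Tapbp, Psmb8, Psmb9 and Psmb10 had no match to the IRF core, the NF-kappaB consensus or the longer element, which says only that these letters are not in this window.

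The libraries held 16403254 to 38551551 counts, and no gene of the 10 had fewer than 148 counts in any library. Normalized counts are counts divided by a size factor that makes libraries of different depth comparable. Both day 0 libraries stood apart from the other 4 in genes named after their values were seen: Xist had 2530 and 5837 counts at day 0 and 7 to 26 later, and Ifi202b had 10511 and 5711 counts at day 0 and at most 1 later, and Gbp2b had 4837 and 935 and then at most 1, while the Y-linked Ddx3y had 1707 to 4907 counts in all 6. For the members, changes from day 0 are therefore given beside the change from day 3 to day 9, and the FGF8 effect is given with and without day 0. The edgeR effects of FGF8 on other genes include day 0. Whether the day 0 cells were of the same stock as the differentiated cells is not given in the sources used here, so that a change from day 0 cannot be told apart from a difference between the cells themselves. What part this has in any result was not tested. The 8 adipocyte markers (Adipoq, Fabp4, Plin1 and others) summed to 521 to 731 normalized counts at day 0 and to 243074 or more afterwards. The immune cell markers Adgre1 and C1qa had 0 counts in all 6 libraries and Ptprc had 1 count in all. These named transcripts were at or near 0, but not every marker of the list was. Of the 14 immune markers, 6 to 10 were at 0 in each library. Their sum was 99.0 to 160 normalized counts in 5 libraries and 56.3 in FGF8 cells at day 0. Most of it came from Cd68 (35.8 to 100.8) and Csf1r (35.6 to 45.5 in untreated and 5.12 to 10.6 in FGF8 cells). The marker Lyz2 was also abundant enough to count in untreated cells from day 0 to day 9, with a log2 change of -1.70. Between FGF8 and untreated cells at day 0, only Csf1r (log2 difference -2.93) and Cd68 (-0.14) were abundant enough to count.

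All 10 genes were lower in FGF8-pretreated than in untreated cells at day 0, by 2.40-fold (Tap2) to 6.01-fold (Tap1), and all 10 were still lower on days 3 and 9, by a smaller factor than at day 0 for each gene. Together they took 0.424%, 0.489% and 0.529% of all counts in untreated cells at days 0, 3 and 9, and 0.138%, 0.197% and 0.217% in FGF8 cells. The median log2 difference of the members on days 0, 3 and 9 came to -1.93, -0.90 and -0.78, and that of all genes above the abundance limit came to 0.05, 0.08 and 0.08. A drop of 2-fold or more was seen in 10, 4 and 4 of 10 members, against 10.8%, 12.1% and 8.74% of all genes whose mean over the pair reached 20 normalized counts. The 4 members at days 3 and 9 were the same, namely B2m, H2-K1, H2-D1 and Psmb8. In bulk RNA, fewer cells that express a gene and less RNA per cell cannot be told apart.

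**Figure D1:**
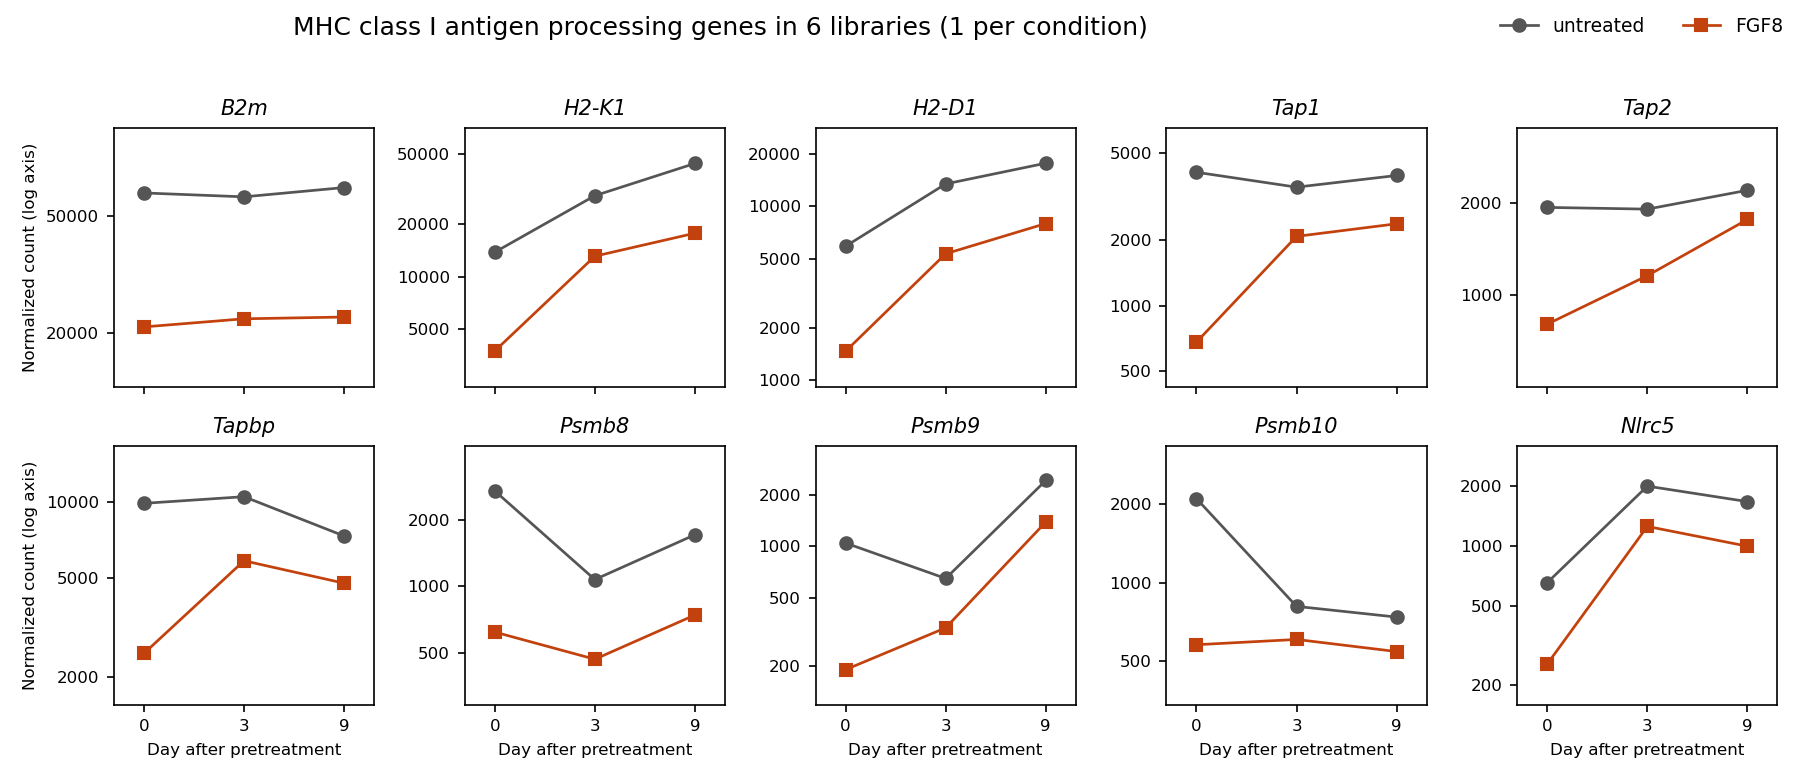
Normalized counts (log axis, with a range of its own in each panel) of the 10 genes on days 0, 3 and 9 after pretreatment, spaced evenly, in untreated (grey circles) and FGF8-pretreated (orange squares) cells, with 1 library per point and no error bars. The FGF8 point lies below the untreated point of its day in all 30 pairs, and the lines draw together after day 0 most for Tap1, Psmb9, Psmb10 and Tapbp.

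B2m, the light chain shared by all class I molecules, had by far the highest level per length in every library. It stood at 60107, 58298 and 62714 normalized counts in untreated cells on days 0, 3 and 9, and at 20989, 22369 and 22683 in FGF8 cells. The 2 arms did not overlap, and the values within an arm lay within a narrow band. The log2 differences on the 3 days were -1.52, -1.38 and -1.47, with 95% counting intervals no wider than from -1.54 to -1.49. These intervals, here and below, cover counting error only and not the spread between cultures.

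H2-K1, one of the classical heavy chains that present peptides to CD8 T cells, had 13812, 29058 and 44429 normalized counts in untreated cells and 3763, 13104 and 17739 in FGF8 cells. H2-D1, the other classical heavy chain, had 5886, 13432 and 17681 in untreated cells and 1465, 5328 and 7951 in FGF8 cells. Both rose from library to library within each arm, so that the FGF8 libraries of day 9 exceeded the untreated libraries of day 0. The log2 differences between arms on days 0, 3 and 9 were -1.88, -1.15 and -1.32 for H2-K1 and -2.01, -1.33 and -1.15 for H2-D1. Per length, H2-K1 stood at 2.03 to 2.41 times H2-D1 in all 6 libraries. Per length and relative to B2m, H2-K1 was at 0.152, 0.330 and 0.468 in untreated cells and at 0.119, 0.387 and 0.517 in FGF8 cells, so this ratio moved with the day more than with the treatment. Of the 100-base windows of the H2-D1 transcript, 4.61% also occur in transcripts of other class I genes, so that a small share of its reads may be split between copies, and for H2-K1 no window was shared.

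Tap1, a subunit of the transporter, had 4094, 3497 and 3956 normalized counts in untreated cells and 681, 2081 and 2376 in FGF8 cells. Its level was flat in untreated cells, while the FGF8 library of day 0 lay far below the other 5. The log2 difference of -2.59 at day 0 was the widest of the 10 genes and became -0.75 and -0.74 later. Tap2, its partner subunit, had 1933, 1908 and 2198 in untreated cells and 804, 1157 and 1766 in FGF8 cells. Its difference shrank at each step, from -1.26 to -0.72 and -0.32. Per length, Tap1 stood at 1.43 to 1.68 times Tap2 in untreated cells and at 0.672, 1.43 and 1.07 times in FGF8 cells.

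Tapbp (tapasin), which bridges the transporter and the empty heavy chain, had 9906, 10532 and 7339.7 normalized counts in untreated cells and 2494, 5845 and 4755 in FGF8 cells. Its differences were -1.99, -0.85 and -0.63. It is the member whose exons overlap another protein-coding gene on its own strand, Zbtb22, over 20.9% of its exon bases, and how reads of the overlap were assigned is not given in the sources used here.

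Among the immunoproteasome subunits, Psmb8 (LMP7) had 2692, 1074 and 1709 normalized counts in untreated cells and 623, 470.3 and 744 in FGF8 cells. Psmb9 (LMP2) had 1041, 647 and 2417 in untreated cells and 189, 333 and 1382 in FGF8 cells. Psmb10 (MECL-1) had 2105, 809.5 and 736 in untreated cells and 576, 604 and 542 in FGF8 cells. The 3 subunits therefore started alike and parted later: the Psmb8 arms stayed apart, the Psmb9 level was lower at day 3 than at day 0 in untreated cells and higher in FGF8 cells, with higher values at day 9 in both, and the Psmb10 arms came near each other as the untreated level dropped. The log2 differences at days 0, 3 and 9 were -2.11, -1.19 and -1.20 for Psmb8, -2.45, -0.96 and -0.81 for Psmb9, and -1.87, -0.42 and -0.44 for Psmb10.

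Nlrc5, which drives transcription of the class I chains, B2m and their helpers, had the lowest level per length in 4 of the 6 libraries, all but those of day 3. It stood at 654, 1999 and 1671 normalized counts in untreated cells and at 255, 1254 and 997 in FGF8 cells. It was thus higher on days 3 and 9 than at day 0 in both arms and lower in the FGF8 library of each day, by -1.36, -0.67 and -0.74 on the log2 scale.

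**Figure D2:**
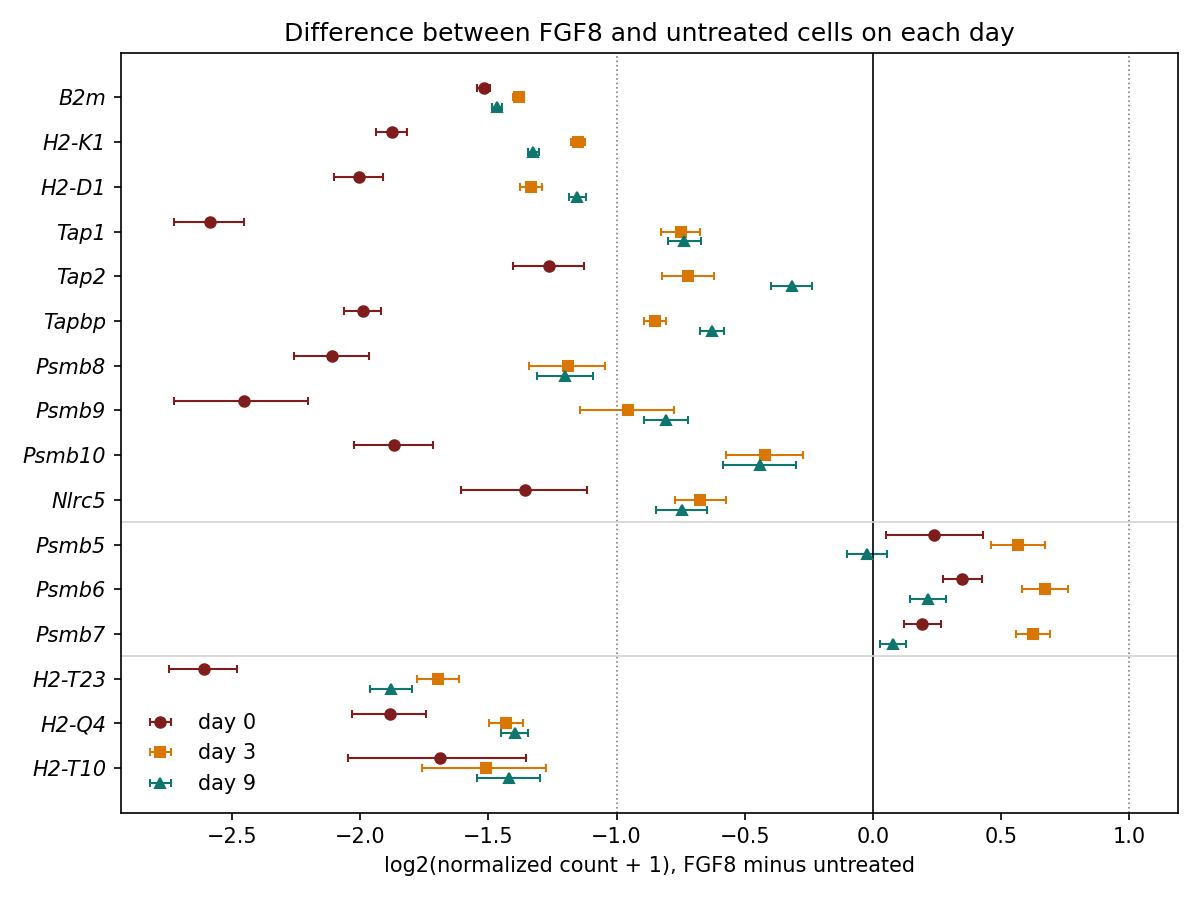
Difference of log2(normalized count + 1) between FGF8 and untreated cells on day 0 (dark red circles), day 3 (orange squares) and day 9 (green triangles), with 95% counting intervals as bars and dotted lines at 2-fold. The upper block holds the 10 members, all left of 0 on each day, the middle block the constitutive proteasome subunits Psmb5, Psmb6 and Psmb7 around or right of 0, and the lower block 3 other class I heavy chains, shown because edgeR called them and so chosen after their values were seen, all left of -1.

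With 1 library per condition, no difference of a single day has a replicate check. edgeR's quasi-likelihood test was therefore applied to the part of the FGF8 effect that the days have in common, with day as a block. Such a fit keeps 2 residual degrees of freedom, and its error includes any change of the effect from day to day. The shared log2 effect ranged from -1.52 (H2-D1, standard error 0.222, and Psmb8, standard error 0.233) to -0.79 (Tap2, standard error 0.216), with each gene lower in 3 of 3 pairs. None of the 10 passed an adjusted p of 0.05, at which 1.25% of the 14569 genes tested were lower. The adjusted p of this edgeR test ran from 0.0523 for B2m to 0.197 for Psmb10. All 10 members were lower at an unadjusted p under 0.05 in edgeR, as were 1883 of the 14569 genes tested, with 1506 higher. Without day 0 the same test called 8 of 10, all but Tap2 (adjusted p = 0.0619 from edgeR) and Psmb10 (adjusted p = 0.0939 from edgeR), with log2 effects of -1.45 for B2m and -1.27 for H2-D1. That fit called 11.6% of all its genes as lower. The fits without day 3, without day 9 and without the day block called none of the members, and no other gene in either direction. DESeq2's Wald test called 9 of 10, all but Psmb10, against 8.92% of all genes, and the edgeR fit with no filter on low counts called B2m, H2-K1, H2-D1 and Psmb8, against 2.05%. Whether the FGF8 difference changed between days could not be tested, since an interaction leaves no residual degrees of freedom.

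Related gene groups were measured beside the members. Of the 18 other class I heavy chain genes, 10 were abundant enough to count at day 0, and all 10 were lower in FGF8 cells. At day 0, 7 of the 10 were at least 2-fold lower, with 8 of 11 at day 3 and 7 of 13 at day 9. Of all genes, 10.8%, 12.1% and 8.74% were. The medians of these heavy chains were -1.47, -1.17 and -1.13 on the log2 scale. edgeR called 3 of 13 as lower over the 3 days, against 1.25% of all genes. These were the nonclassical H2-T23 (log2 effect -2.08), H2-Q4 (-1.59) and H2-T10 (-1.56), with adjusted p of 0.0441, 0.0429 and 0.0429 in edgeR. H2-T23 encodes Qa-1, which shows leader peptides of other class I chains to NK cell receptors, and had 4271, 4186 and 4358 normalized counts in untreated cells against 699, 1292 and 1184 in FGF8 cells. At day 0 the widest gap was that of H2-T24 (-3.87) and the narrowest that of H2-M3 (-0.42). Genes of this family share sequence, so that reads may be split between copies.

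The loading and trimming helpers had medians nearer 0 than the members, at -0.22, -0.08 and -0.12. None of 11 was 2-fold lower on any day, where 10.8%, 12.1% and 8.74% of all genes were. edgeR called none of them, as it called none of the members. The lowest were the tapasin relative Tapbpl at day 0 (-0.97) and the disulfide isomerase Pdia3 at day 3 (-0.74) and day 9 (-0.63). Both values of Pdia3 lay within the range of the members on those days. The 3 constitutive catalytic subunits had medians of 0.24, 0.62 and 0.08, and the 11 other core subunits 0.18, 0.45 and 0.05, with none at least 2-fold lower on any day. Of the activator and assembly genes, Psme1, an interferon-responsive part of the PA28 cap, was at -0.97 at day 0 and at 0.15 and -0.0020 afterwards.

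**Figure D3:**
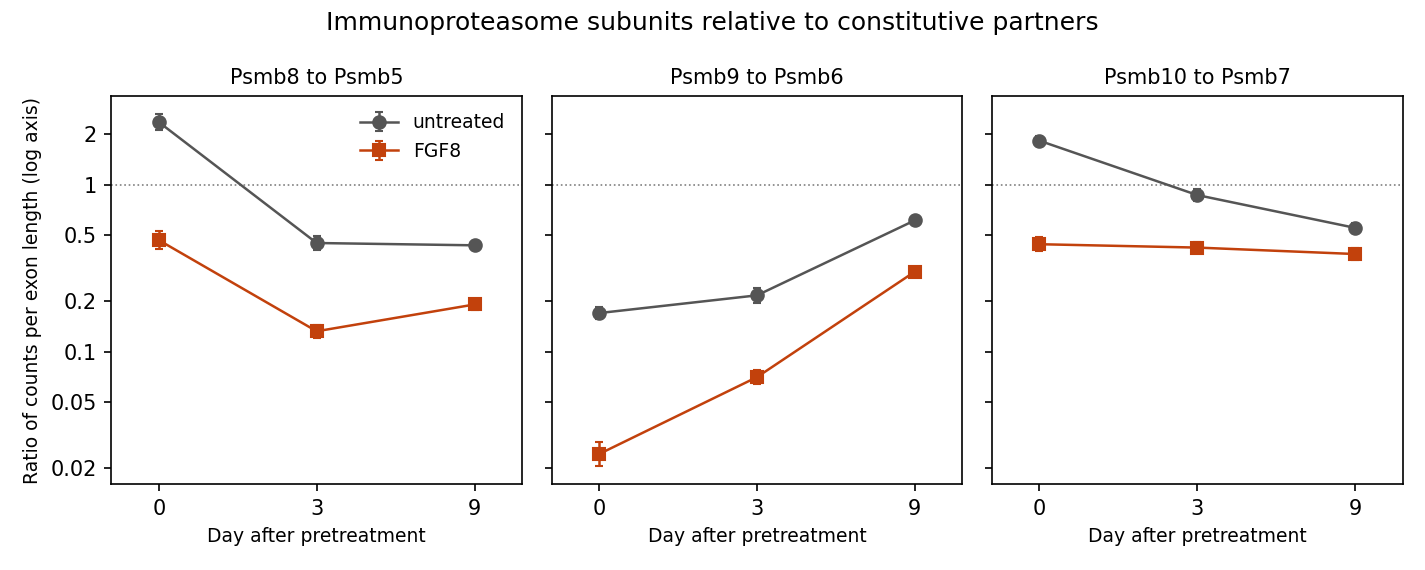
Ratio of counts per exon length (log axis) of each immunoproteasome subunit to the constitutive subunit it replaces, on days 0, 3 and 9 (spaced evenly), in untreated (grey circles) and FGF8 (orange squares) cells, with 95% counting intervals as bars and a dotted line at equal levels. The untreated line lies above the FGF8 line in all 9 pairs, and Psmb8 and Psmb10 exceed their partners in untreated cells at day 0 only.

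Transcript ratios of each immunoproteasome subunit to its constitutive partner were taken within each library, and no protein was measured. Psmb8 replaces Psmb5, and their ratio per length was 2.37, 0.447 and 0.433 in untreated cells and 0.465, 0.132 and 0.191 in FGF8 cells. Psmb9 replaces Psmb6, with ratios of 0.170, 0.217 and 0.611 in untreated cells and 0.0243, 0.0702 and 0.301 in FGF8 cells. Psmb10 replaces Psmb7, with ratios of 1.84, 0.867 and 0.551 in untreated cells and 0.440, 0.420 and 0.384 in FGF8 cells. Untreated cells had the higher ratio on each day, by 5.10, 3.38 and 2.26 times for Psmb8, by 7.00, 3.09 and 2.03 times for Psmb9, and by 4.17, 2.06 and 1.43 times for Psmb10. Each of these gaps was the widest at day 0 and the narrowest at day 9. The level of a ratio depends on the exon length used (2.37 became 4.04 with the longest transcript), whereas its fold between libraries does not.

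The genes that interferon acts through were measured beside the pathway. Ifnb1, which encodes interferon beta, had 28 counts in untreated cells at day 0 and 0 counts in FGF8 cells, where a count of 0 allows up to 3 counts, and 1 to 10 counts in the other 4 libraries. The 14 regulators of class I genes had medians of -0.27, -0.09 and -0.02 on the log2 scale on days 0, 3 and 9. At least 2-fold lower were 3, 0 and 0 of these 14 regulators, against 10.8%, 12.1% and 8.74% of all genes. Stat2, a part of the factor that answers type I interferon, was the lowest of them on each day, at -2.16, -0.89 and -0.97. No regulator was called by edgeR over the 3 days. Of the 7 interferon receptor and kinase genes, 0, 2 and 1 were at least 2-fold lower on days 0, 3 and 9. Jak1 was the lowest at day 3 (-1.20) and Ifnar2, a chain of the type I receptor, at day 0 (-0.83) and day 9 (-1.08). Ifnar2 was the 1 of 7 called as lower (log2 effect -1.03, adjusted p = 0.0499 from edgeR), against 1.25% of all genes. The MHC class II pathway was almost silent, with 10 genes summing to 395, 271 and 561 normalized counts in untreated cells and 264, 143 and 323 in FGF8 cells, and H2-Ob at 0 throughout.

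Most preadipocyte markers were also lower in FGF8 cells. On days 3 and 9 the FGF8 value was at least 2-fold lower for 8 of 8 (Pdgfra, Ly6a, Cd34, Col1a1 and others), against 12.1% and 8.74% of all genes. On day 0 it was so for 5 of 8, against 10.8%. The medians of the markers on days 0, 3 and 9 were -1.27, -1.74 and -2.04 on the log2 scale. edgeR called 3 of 8 as lower, Pdgfra, Pdgfrb and Dlk1, against 1.25% of all genes. The 8 markers summed to 324038 to 532836 normalized counts in untreated and 116097 to 163386 in FGF8 cells. The medians of the adipocyte markers were -0.57, 0.83 and 0.32. From day 0 to day 9 the median of the preadipocyte markers went from -1.27 to -2.04 and that of the members from -1.93 to -0.78. Single markers lay apart from these medians. Ly6a was the lowest marker at day 0, at -4.24, and Cd34 the lowest at day 3, at -2.33, and at day 9, at -3.77. Thy1 was higher in FGF8 cells at day 0, at 0.67. The part of cell composition in the lower class I transcripts was not tested.

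The second question was how each gene moved as cells differentiated. In untreated cells the members went different ways and their median stayed near 0, at -0.03 from day 0 to 3 and 0.12 from day 0 to 9. By day 3, Nlrc5 (1.61), H2-D1 (1.19) and H2-K1 (1.07) were at least 2-fold higher and Psmb10 (-1.38) and Psmb8 (-1.32) at least 2-fold lower on the log2 scale. That is 3 of 10 higher and 2 of 10 lower, against 19.5% and 15.5% of all genes. By day 9, 4 of 10 were at least 2-fold higher, namely H2-K1 (1.69), H2-D1 (1.59), Nlrc5 (1.35) and Psmb9 (1.21), and Psmb10 was lower (-1.51), against 23.7% and 19.5% of all genes. These shares are not far from the background. B2m, Tap1 and Tap2 stayed within 0.23 of their day 0 value on this scale.

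In FGF8 cells most members stood higher on the later days. The median change was 1.02 to day 3 and 1.47 to day 9, and that of all genes was -0.04 and -0.03. At least 2-fold higher were 5 of 10 at day 3 (Nlrc5 2.29, H2-D1 1.86, H2-K1 1.80, Tap1 1.61 and Tapbp 1.23) and 6 of 10 at day 9 (Psmb9 2.86, H2-D1 2.44, H2-K1 2.24, Nlrc5 1.96, Tap1 1.80 and Tap2 1.13), against 24.1% and 26.1% of all genes. None was 2-fold lower at day 9, where 22.6% of all genes were. B2m (0.09 and 0.11) and Psmb10 (0.07 and -0.09) changed little. The changes from day 0 in the 2 arms and the FGF8 differences share libraries, so the steeper climb in FGF8 cells and the narrower gap on later days are the same values seen from 2 sides.

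**Figure D4:**
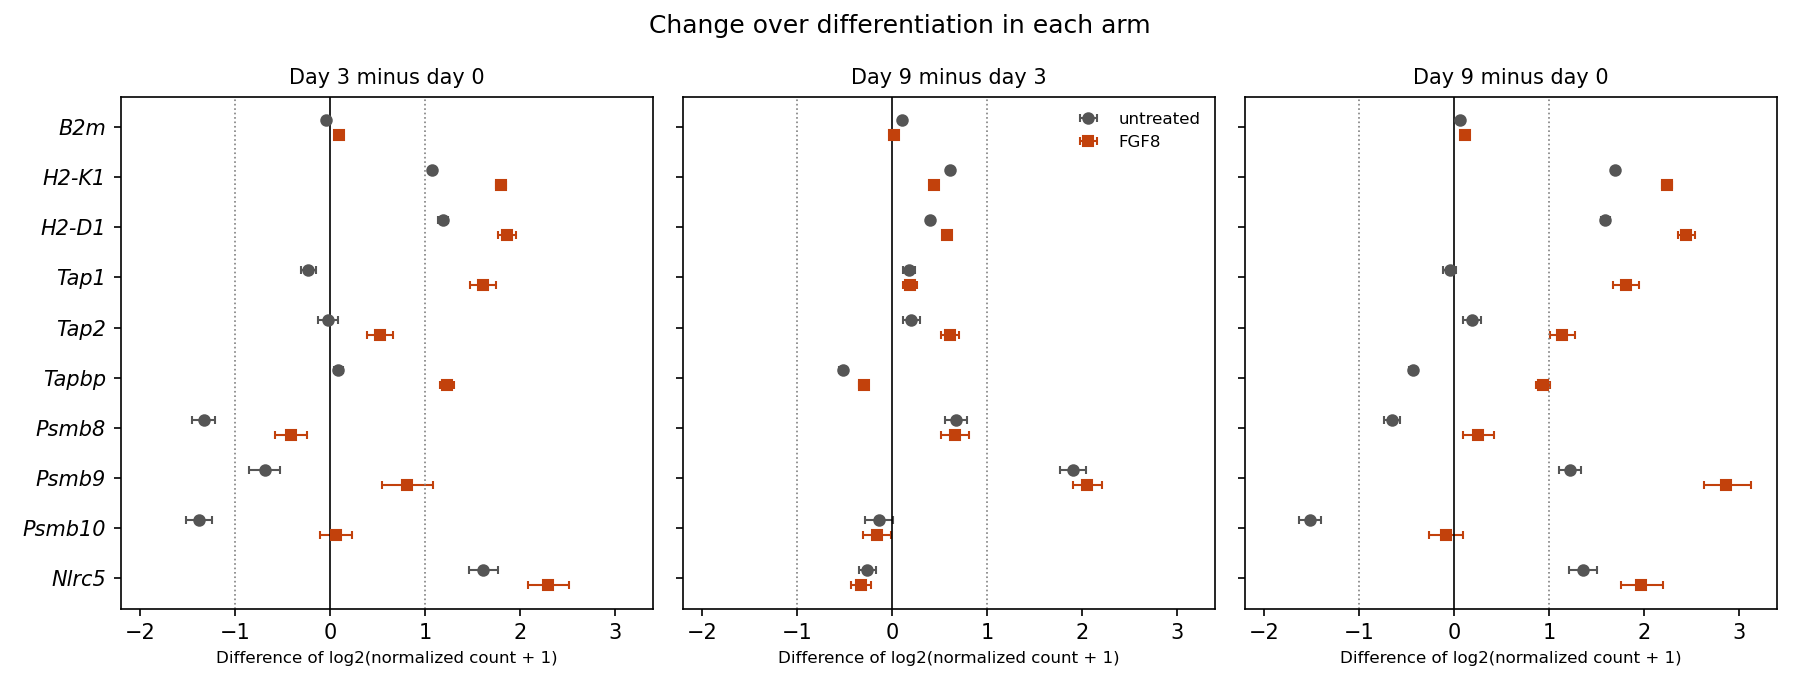
Change of log2(normalized count + 1) between days in untreated (grey circles) and FGF8 (orange squares) cells for each member, from day 0 to 3, from day 3 to 9 and from day 0 to 9, with 95% counting intervals and dotted lines at 2-fold. The arms lie apart in the panels that start at day 0, most so for Tap1, Tapbp, Psmb9 and Psmb10, and closer together from day 3 to day 9, where Psmb9 alone passes 2-fold.

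From day 3 to day 9, which leaves the day 0 libraries out, the values of each of the 10 members had the same sign in both arms, with a counting interval that held 0 for B2m in FGF8 cells (0.020) and for Psmb10 in untreated cells (-0.14). Psmb9 was the only one at least 2-fold higher, by 1.90 in untreated and 2.05 in FGF8 cells, where 8.77% and 8.16% of all genes were. None was 2-fold lower, where 4.42% and 5.40% of all genes were. Psmb8 (0.67 and 0.66), H2-K1 (0.61 and 0.44) and H2-D1 (0.40 and 0.58) were higher by less than 2-fold, and Tapbp (-0.52 and -0.30) and Nlrc5 (-0.26 and -0.33) were lower in both arms. Psmb9 and its divergent neighbour Tap1 did not move together, since the ratio of Psmb9 to Tap1 per length went from 0.292 to 0.966 in untreated cells and from 0.253 to 0.919 in FGF8 cells. Their exons overlap on opposite strands, and the strand setting of the counting is not given in the sources used here.

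Changes shared by both arms were tested in the additive edgeR fit, in which the 2 arms stand in for replicates. From day 0 to day 3 it called 3 of 10 members as higher, H2-K1 (log2 effect 1.49, adjusted p = 0.0129), H2-D1 (1.57, adjusted p = 0.0117) and Nlrc5 (2.00, adjusted p = 0.00514), against 26.2% of all genes. By day 9 edgeR called 4 of 10, H2-K1 (1.99, adjusted p = 0.00522), H2-D1 (2.04, adjusted p = 0.00510), Nlrc5 (1.68, adjusted p = 0.00518) and Psmb9 (2.00, adjusted p = 0.0186), against 29.2%. No member was called as lower in either interval, where 19.8% and 24.8% of all genes were. From day 3 to day 9, a contrast added after the data were seen, edgeR called none of the 10, and 0.0618% of all genes as higher, with Psmb9 at a log2 effect of 1.97 (adjusted p = 0.115, unadjusted p = 0.00673). In the edgeR fit without the day 0 libraries, with 1 residual degree of freedom, Psmb9 (1.95, adjusted p = 3.15e-04) and Psmb8 (0.64, adjusted p = 0.0193) were called as higher, that is 2 of 10 against 11.0% of all genes.

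The order of the levels per length changed with these shifts. B2m was the most abundant of the 10 and H2-K1 the next in all 6 libraries, at 28541 and 4336 normalized counts per kb in untreated cells at day 0 and at 10771 and 5570 in FGF8 cells at day 9. Tapbp came next at day 0 in both arms and H2-D1 on the later days. These ranks use the exon union as length and depend on that choice. With the longest transcript as length (2132 bp for H2-D1 and 3670 bp for Tapbp), H2-D1 would stand above Tapbp at day 0 as well. Psmb9 held rank 9 at day 0 and rank 10 at day 3 in both arms, and rank 6 in untreated and 7 in FGF8 cells at day 9. Psmb10 went from rank 5 at day 0 in both arms to ranks 9 and 8 at day 9. Neighbours such as Psmb10 and Tap1 in FGF8 cells at day 3, at 349 and 346 normalized counts per kb, were about equal, and with 1 library per condition there is no spread against which to set such gaps.

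Among 11371 other genes, each averaging 100 or more normalized counts, the profiles most like the members' mean were those of Sparc, Cst3, Pdgfd, Map3k8 and Tcp11l2, with root mean square differences of 0.125, 0.185, 0.200, 0.201 and 0.207 over 6 centred log2 values (median of all candidates 0.942). The members themselves ranged from 0.225 for Tap1 to 0.721 for Psmb10, so that their mean profile describes Tap1 well and Psmb10 poorly. Sparc, which encodes a matrix glycoprotein, had 111357, 108202 and 124605 normalized counts in untreated cells and 22604, 51336 and 66365 in FGF8 cells. Cst3, a secreted cysteine protease inhibitor, had 4244, 5235 and 5575 in untreated cells and 1600.3, 3001 and 3805 in FGF8 cells.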

How the data were processed

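Bulk RNA sequencing was measured in 6 libraries, 1 per condition. According to the methods, the authors prepared stranded mRNA libraries, trimmed reads with Trim Galore, aligned them to GRCm39 with HISAT2 and counted them per gene with featureCounts, and they deposited raw counts per gene symbol, without normalization. Tool versions, the annotation, the strand setting and how multiply matching reads were counted are not given in the sources used here. Groups were taken from the sample titles. No 2 libraries were identical. The members, gene lists, comparisons and alternatives were chosen with earlier results of these data known.

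Counts were divided by DESeq2 size factors (version 1.42.0), and differences were taken on log2(normalized count + 1), with 95% Clopper-Pearson (exact binomial) limits on the ratio of 2 counts. A 2-fold rule was applied to genes with a pair mean of at least 20 normalized counts. edgeR (version 4.0.16; TMM, filterByExpr, quasi-likelihood test, treatment and day in 1 additive model, Benjamini-Hochberg adjustment over all genes tested, threshold 0.05) was used for shared effects, and both steps were tested on simulated data. The design took edgeR on counts in place of the DESeq2 named in the methods, whose design is not given in the sources used here, and DESeq2 was run as an alternative. Levels per length used the exon union of GENCODE M39, and overlaps and shared 100-base windows came from the same annotation. Motifs were searched on both strands of RefSeq windows, and positions are counted from the start to the first base of a match. Nearest profiles were ranked by the root mean square difference from the members' mean centred log2 profile. The named genes are the members, their constitutive partners, the extremes of each list, genes at 0 and the 5 nearest profiles. The genes that set the day 0 libraries apart and those named because edgeR called them were chosen after their values were seen. Alternatives were TMM, total counts or pair size factors as scaling, pseudocounts of 0.5 and 5, 1.5-fold and 4-fold rules, a pair mean of 100 or none as the limit, other fits, leaving out each day, and the longest transcript as length. Work was done in R 4.3.3 and Python 3.11.15 with scipy 1.17.1 and pandas 2.3.3.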

Additional observations from a re-analysis of the deposited data

Results flagged for a closer look

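Of the members, 5 changed in opposite directions over differentiation in the 2 arms, each by more than its counting interval. The difference between arms was not tested, since each arm has 1 library per day, and the values start from the day 0 libraries, which stood apart from the others in Xist and Ifi202b. From day 0 to day 3, Tap1 was higher by 1.61 on the log2 scale in FGF8 cells and at -0.23 in untreated cells. Psmb9 over the same days was at 0.81 in FGF8 cells and at -0.69 in untreated cells. B2m was at 0.092 in FGF8 cells and at -0.044 in untreated cells, and both of these signs turned with another scaling. From day 0 to day 9, Tapbp was at 0.93 in FGF8 cells and at -0.43 in untreated cells. Psmb8 over the same days was at 0.25 in FGF8 cells, a sign that turned when total counts were used for scaling, and at -0.66 in untreated cells.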

How the results depend on the processing

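With 1 library per condition, depth limits no member much, since the smallest count of a member was 148, and the missing replicates are the main limit. No paired analysis was possible because the labels give no replicate numbers to pair by, with 1 library for each condition. In the edgeR fit the day was the block that matched the arms. All 10 members were lower in FGF8 cells on each of the 3 days in all 180 values over the scalings and pseudocounts tried. Other fold rules moved the counts by construction: members lower at a 4-fold rule were 4, 0 and 0 at days 0, 3 and 9, and with 1.5-fold 9 and 8 at days 3 and 9. Over differentiation, the 4-fold rule left 0 higher and 0 lower in untreated cells in each interval, and 1 and 3 higher in FGF8 cells at days 3 and 9. The 1.5-fold rule gave 2 lower in untreated cells from day 0 to 9 and 3 higher in each arm from day 3 to 9. The shares of all genes at the 1.5-fold and 4-fold rules are not given here, so these counts are not read as a result about the members.

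Scaling by total counts moved the median of all genes by over 0.1, from -0.03 to -0.31 for FGF8 cells from day 0 to day 9. With it the members' median became -0.060 (reversed from 0.12) in untreated cells from day 0 to 9 and 0.048 from day 3 to 9, and in FGF8 cells 0.81 from day 0 to 3, 1.19 from day 0 to 9 and 0.24 from day 3 to 9. TMM gave 0.070 for untreated cells from day 0 to 3. B2m over differentiation turned to 0.057 (untreated, day 0 to 3) with TMM, and with total counts to -0.038 (untreated, day 3 to 9), -0.12 (untreated, day 0 to 9), -0.11 (FGF8, day 0 to 3) and -0.16 (FGF8, day 0 to 9). Psmb8 turned to -0.022 (FGF8, day 0 to 9) with total counts.

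The FGF8 effect shared by the 3 days depended on the fit, and the cause was not tested. Of all genes, edgeR called 182 lower and 3 higher. The numbers were 93 and 1 with DESeq2 size factors, 406 and 13 with no filter, 1661 and 569 without day 0, and 0 and 0 without day 3, without day 9 or without the day block, and DESeq2's Wald test called 1221 lower and 475 higher. Members called lower were 9 by the Wald test, 4 with no filter and 8 without day 0, against 0. The adjusted p of B2m over these fits ranged from 3.43e-17 to 1.00. From day 0 to day 3 the fit with no treatment term called 1671 genes lower (2884 otherwise) and 1 member higher, and the Wald test called 1 member lower. From day 0 to day 9 it called 2383 genes lower (3614 otherwise) and 0 members higher. From day 3 to day 9, leaving out day 0, chosen after seeing the data, gave 1465 genes lower and 1578 higher (1 and 9 otherwise) and 2 members higher. With the longest transcript as length, the ratios of Psmb8 to Psmb5 and of Psmb10 to Psmb7 in untreated cells at day 0 were 4.04 and 1.37.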

Other observations

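Outside the 10 members, other class I heavy chains differed between the days in patterns of their own. H2-Q10, a secreted class I chain, had 2 to 23 counts at days 0 and 3 in both arms and 421 and 550 counts in untreated and FGF8 cells at day 9. H2-Q1 had 0 counts in both day 0 libraries and 24 to 139 counts in the other 4. H2-T24 had 5383 normalized counts in untreated cells at day 0 and 120 to 596 in the other 5 libraries. Of 13 such genes tested by edgeR over both arms, 0 were called in either direction from day 3 to day 9, where 0.0618% of all genes were called higher. From day 0 to day 9, 8 of the 13 were called higher and 2 lower, against 29.2% and 24.8% of all genes. These calls, and the patterns of H2-Q1 and H2-T24, rest on the day 0 libraries, which stood apart from the others in Xist and Ifi202b. What part this has in them was not tested. Among the class II pathway genes, Cd74, the invariant chain, had 30.8, 54.7 and 209 normalized counts in untreated cells and 5.12, 21.1 and 137 in FGF8 cells on days 0, 3 and 9.

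Of the endothelial markers, Kdr, a VEGF receptor, had the highest value of its list in untreated cells at day 0, at 1288 normalized counts, where the list summed to 1898 against 467 in FGF8 cells. Of the 3 abundant enough to count at day 0, 2 were at least 2-fold lower in FGF8 cells, with Kdr the lowest (-7.21 on the log2 scale). Egfl7 went the other way (0.51) and held 396 of the 467 normalized counts in FGF8 cells.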
